A study of Mus musculus with 6 samples.

Results

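The 10 genes described here encode galectins, annexins and S100 proteins. They were chosen by symbol as abundant transcripts of proteins with roles in membrane repair, and comprise *Lgals1*, *Lgals3*, *Anxa1*, *Anxa2*, *Anxa5*, *Anxa6*, *S100a4*, *S100a6*, *S100a10* and *S100a11*. All 10 were found among the 20654 genes of the count table, and all 10 were among the 8551 genes that passed the filter on low counts. RNA-seq was performed on mouse muscle satellite cells (MuSCs), the stem cells of skeletal muscle, which had been sorted as VCAM1+, CD31-, CD45- and Sca1- cells and cultured for 3 d in growth medium. One group of 3 libraries was labelled wild type and the other group of 3 libraries *Piezo1* cKO, both on a C57BL/6 background. *Piezo1* encodes a calcium-permeable channel opened by membrane tension. In the *Piezo1* cKO mice, both *Piezo1* alleles were flanked by loxP sites and a tamoxifen-inducible Cre was expressed from the *Pax7* locus (*Piezo1* fl/fl; *Pax7* CreERT2/+), so that recombination was limited to cells that had used the *Pax7* promoter. The study names the control of its RNA-seq comparison *Pax7* CreERT2/+, by which both groups carry the Cre allele, whereas the sample label reads only wild type. According to the study's methods, mice used for cell culture were injected with tamoxifen before the cells were isolated. Cells of both groups also received 1 µM 4-hydroxytamoxifen in culture, in a medium with 30% foetal bovine serum, 1% chicken embryo extract and 10 ng/mL bFGF. The age of the animals was not given in the sources used here. The labels also do not say whether the 3 libraries of a group came from separate mice, so that p-values measure the spread between these libraries, which may be partly technical.

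Galectins are small lectins that bind β-galactosides of glycoproteins, outside the cell and on damaged vesicles inside it. Annexins bind acidic phospholipids in the presence of calcium, and in muscle cells they gather at breaks of the plasma membrane and help to close them. S100 proteins are small calcium-binding proteins of the EF-hand family, and several of them form complexes with a particular annexin: S100A10 pairs with annexin A2, and S100A11 binds annexin A1. Many of these proteins act at membranes, and the annexins and most S100 proteins respond to a rise in calcium.

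The sequences just upstream of the transcription start were compared among the members with an entry in the set of RefSeq upstream sequences used here (build GRCm38.p6). These were 7 of the 10. *Lgals1*, *Anxa6* and *S100a10* had no entry in that set, and whether RefSeq annotates their start sites elsewhere was not examined. Of the 7, 4 are shown: that of *Anxa2*, the most abundant annexin, and those of all 3 S100 members with an entry, *S100a6*, *S100a4* and *S100a11*. Each is the 250 bases before the start site, 5′ to 3′ on the coding strand, which is the plus strand for all 4. They lie at chr9:69453433-69453682 (*Anxa2*), chr3:90612644-90612893 (*S100a6*), chr3:90603520-90603769 (*S100a4*) and chr3:93520246-93520495 (*S100a11*). Capitals mark every match, on either strand, to 1 of 4 motifs: TATAAA (the TATA box), GGGCGG (the GC box), CCAAT (which reads ATTGG on the other strand) and TGANTCA (the AP-1 element).
Anxa2: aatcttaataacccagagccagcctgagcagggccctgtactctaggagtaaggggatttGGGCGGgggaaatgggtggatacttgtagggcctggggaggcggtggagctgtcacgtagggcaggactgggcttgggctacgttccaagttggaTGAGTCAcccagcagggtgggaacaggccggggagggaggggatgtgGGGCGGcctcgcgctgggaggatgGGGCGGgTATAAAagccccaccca
S100a6: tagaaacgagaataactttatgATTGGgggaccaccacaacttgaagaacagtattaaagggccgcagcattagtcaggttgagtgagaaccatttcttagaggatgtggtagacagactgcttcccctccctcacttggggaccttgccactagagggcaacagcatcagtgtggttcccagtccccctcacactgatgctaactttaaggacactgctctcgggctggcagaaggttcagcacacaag
S100a4: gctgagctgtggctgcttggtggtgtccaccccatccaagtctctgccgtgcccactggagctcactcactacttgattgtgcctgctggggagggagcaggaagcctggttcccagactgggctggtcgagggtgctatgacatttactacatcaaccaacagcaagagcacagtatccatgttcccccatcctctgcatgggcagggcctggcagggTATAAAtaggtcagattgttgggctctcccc
S100a11: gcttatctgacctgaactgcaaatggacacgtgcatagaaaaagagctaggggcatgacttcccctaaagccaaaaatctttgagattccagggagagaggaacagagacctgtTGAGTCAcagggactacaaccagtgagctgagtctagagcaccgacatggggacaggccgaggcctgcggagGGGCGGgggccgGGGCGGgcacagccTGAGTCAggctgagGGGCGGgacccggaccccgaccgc
TATAAA was found in 3 of the 7 members, 17 bases before the start of *Anxa2*, 31 bases before that of *S100a4* and 32 bases before that of *Anxa1*. The starts meant here are those of RefSeq, which can differ from the gene positions given below. By those positions, the TATAAA of *Anxa2* and that of *Anxa1* lie within the gene. Of the 32851 RefSeq windows of the same length, 12.4% hold it. TGANTCA was found in 2 of the 7, once in *Anxa2* and 2 times in *S100a11*, against 6.75% of all windows. GGGCGG was found in 3 of the 7 (*Lgals3*, *Anxa2* and *S100a11*) against 32.7%, and CCAAT in 2 of the 7 (*Lgals3* and *S100a6*) against 33.8%. The upstream window of *Anxa5* held none of the 4. These are matches of letters and no sign of binding.

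The libraries held 740936, 931168 and 891531 UMI counts in wild type and 810096, 726378 and 769295 in *Piezo1* cKO. *Piezo1* itself had 11, 5 and 6 counts in the wild-type libraries and 7, 12 and 9 in the *Piezo1* cKO libraries. The ranges overlapped, and the log2 fold change of 0.42 ± 0.46 (SE) was not significant (edgeR adjusted p = 0.791, with *Piezo1* kept despite its low counts). The reads were primed from the poly(A) tail, and whether they cover the deleted part of *Piezo1* was not examined, so these counts do not check the labels. The cells carried markers of cultured MuSCs. *Myod1*, the myogenic regulator of activated cells, stood at 1569, 1366 and 1441 CPM (counts per 1e6 counts, scaled by TMM, edgeR's trimmed mean of M-values) in wild type and at 1489, 1087 and 1353 in *Piezo1* cKO. *Des*, which encodes the muscle intermediate filament desmin, averaged 546 CPM, and *Pax7*, the transcription factor of satellite cells, had 5 to 26 counts per library. Of the genes of the proteins that the sort excluded, *Pecam1* (CD31) had at most 2 counts in a library and *Ly6a* (Sca1) at most 9. *Ptprc* (CD45) had no row and could not be checked. Other genes of fibroblasts and blood cells were higher, such as *Col3a1* at a mean of 229 CPM and *Laptm5* at 55.65 CPM.

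The 10 genes together took up 1.21%, 1.01% and 1.15% of all counts in the wild-type libraries and 1.16%, 0.931% and 1.15% in the *Piezo1* cKO libraries. The wild-type mean was 1.13% ± 0.103 (SD, n = 3) and the *Piezo1* cKO mean 1.08% ± 0.128 (SD, n = 3), a difference smaller than the spread between libraries of a group. The second *Piezo1* cKO library had the lowest share, with a 95% Wilson interval of 0.909% to 0.953% that covers counting error only. In the comparison of *Piezo1* cKO with wild type by edgeR, none of the 10 passed an adjusted p of 0.05, and the same fit called 67 of all 8551 genes (0.784%). At an unadjusted p under 0.05 there were 3 of the 10 (*Anxa1*, *Anxa5* and *Anxa6*), beside 11.9% of all genes. Of the 680 genes at least as abundant as *S100a4*, the least abundant member, 149 had an unadjusted p under 0.05. That limit on abundance was set after the values were seen. DESeq2 with its default settings likewise called 0 of the 10. Their median log2 fold change was -0.08 beside 0.00 over all genes, with 6 of the 10 below 0. Because the samples are bulk RNA, fewer cells of a type and less RNA per cell cannot be told apart in any of these values.

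**Figure D1:**
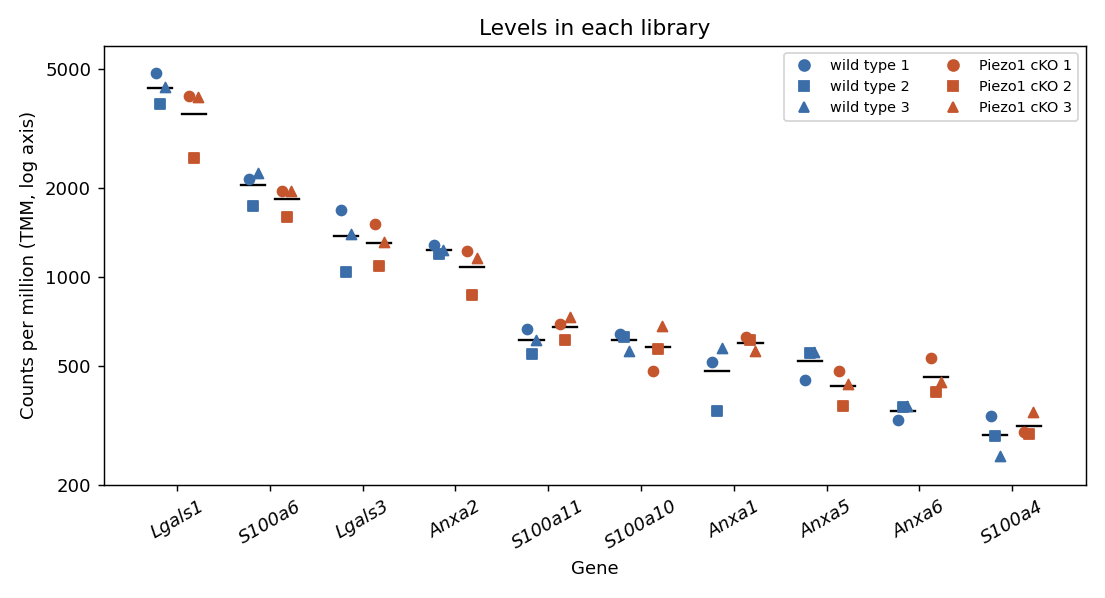
Level of each gene (CPM after TMM, log axis) in each of the 6 libraries, with genes ordered by mean level. Blue symbols are wild type, orange symbols *Piezo1* cKO, the symbol shape gives the replicate number and black bars are group means (n = 3). The groups overlap for every gene except *Anxa6*, and the second *Piezo1* cKO library (orange square) is the lowest for *Lgals1*, *Anxa2*, *Anxa5* and *S100a6*.

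*Lgals1* encodes galectin-1, a secreted and cytosolic galectin that has been linked to myoblast fusion, and lies at chr15:78926725-78930465 on the plus strand (GRCm38, here as for the genes below). By mean CPM it was the most abundant of all 8551 genes, ranking first in 5 of the 6 libraries and second in the other one. Its counts were 3384, 3422 and 3687 in wild type and 3209, 1907 and 3057 in *Piezo1* cKO, which is 4866, 3817 and 4354 CPM against 4067, 2519 and 4051 CPM. The second *Piezo1* cKO library stood far below the other 5, and the remaining *Piezo1* cKO libraries lay within the wild-type range. The share of *Lgals1* in all counts was 0.263% there (95% Wilson interval 0.251% to 0.275%), against 0.368% in the lowest wild-type library (0.355% to 0.380%). With a log2 fold change of -0.29 (95% interval -0.65 to 0.06), *Lgals1* did not pass the test (edgeR adjusted p = 0.527). Without the second *Piezo1* cKO library it was -0.10 (-0.31 to 0.12).

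*Lgals3* encodes galectin-3, a galectin with a long N-terminal tail that gathers on damaged endosomes and lysosomes. The gene spans chr14:47367751-47386160 on the plus strand. It had 1173, 931 and 1184 counts in wild type and 1194, 823 and 992 in *Piezo1* cKO. Its levels of 1687, 1038 and 1398 CPM in wild type enclosed all 3 of the *Piezo1* cKO levels of 1513, 1087 and 1314 CPM. The log2 fold change was -0.07, and its 95% interval of -0.39 to 0.24 leaves room for a change of either sign (edgeR adjusted p = 0.915). Scaling to total counts gave 0.00 and left the sign undetermined. The ratio of *Lgals3* to *Lgals1* counts within a library was 0.347, 0.272 and 0.321 in wild type and 0.372, 0.432 and 0.325 in *Piezo1* cKO, with overlapping groups.

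*Anxa6* encodes annexin A6, an annexin with a duplicated core that forms part of the repair cap on injured myofibres, and lies on chromosome 11 from 54979108 to 55033445 on the minus strand. It had 229, 328 and 311 counts in wild type and 420, 310 and 335 in *Piezo1* cKO, or 329, 366 and 367 CPM against 532, 409 and 444 CPM. All 3 of the *Piezo1* cKO levels were above all 3 of the wild-type levels. *Anxa6* was the 1 member of the 10 whose groups did not overlap, while 16.5% of all genes tested had groups that did not overlap. The same held for 205 of the 680 genes at least as abundant as *S100a4*. The means were 354 ± 21.5 CPM and 462 ± 63.4 CPM (SD, n = 3 each). The difference, 0.38 on the log2 scale with a 95% interval of 0.11 to 0.65, did not pass the threshold over all genes (edgeR adjusted p = 0.176). The call depended on the scaling: the adjusted p was 0.0491 with total counts only (log2 fold change 0.46) and 0.0216 with cyclic loess (log2 fold change 0.50), and over all 14 alternatives it ran from 0.0216 to 0.419. Without the first *Piezo1* cKO library, the highest, the log2 fold change was 0.26 (edgeR adjusted p = 0.419), and without the second it was 0.46.

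*Anxa1* encodes annexin A1, which is recruited early to membrane lesions and also acts outside the cell through formyl peptide receptors. Its gene is on the minus strand of chromosome 19, from 20373428 to 20390944. In wild type it had 359, 317 and 488 counts, and in *Piezo1* cKO 495, 464 and 426. In CPM these were 516, 354 and 576 against 627, 613 and 564, so that only the third *Piezo1* cKO library fell within the wild-type range, and the second wild-type library was the lowest. The *Piezo1* cKO libraries were closer together, with a coefficient of variation of 5.48% against 23.9% in wild type. Counting error alone gives 5.62% at the lowest count, the 317 of the second wild-type library. The *Piezo1* cKO counts were all higher, so that their counting error is smaller. *Anxa1* had a log2 fold change of 0.32 (95% interval 0.04 to 0.60, edgeR adjusted p = 0.330). It was 0.14 without the second wild-type library and 0.47 without the third.

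*Anxa5* encodes annexin A5, which assembles into lattices on exposed phosphatidylserine. The gene is on the minus strand of chromosome 3, from 36448923 to 36475894. It had 314, 497 and 475 counts in wild type and 380, 278 and 328 in *Piezo1* cKO, or 452, 554 and 561 CPM against 482, 367 and 435 CPM. The first wild-type library lay among the *Piezo1* cKO libraries and the other two above all of them. The log2 fold change was -0.29 (95% interval -0.56 to -0.02, edgeR adjusted p = 0.378). Leaving out the second *Piezo1* cKO library, the lowest, moved it to -0.19 (-0.46 to 0.07).

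The differences of *Anxa6* and *Anxa5* ran in opposite directions, and the ratio of their counts within a library, which does not depend on how libraries are scaled, was 0.729, 0.660 and 0.655 in wild type and 1.11, 1.12 and 1.02 in *Piezo1* cKO. The 3 ratios of each group were closer to each other than to any ratio of the other group, and the mean log2 ratio was 0.67 higher in *Piezo1* cKO. This ratio was chosen after the values were seen, from members that differed in opposite directions, and is given as a description with no test.

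*Anxa2* encodes annexin A2, which bridges membranes and actin and pairs with S100A10. It lies on chromosome 9 from 69453620 to 69491795, on the plus strand, and was the most abundant annexin here by CPM. It had 894, 1068 and 1041 counts in wild type and 964, 656 and 872 in *Piezo1* cKO. The wild-type levels of 1286, 1191 and 1229 CPM were nearly even, with a coefficient of variation of 3.85%. The *Piezo1* cKO levels were 1222, 866 and 1155 CPM, of which the first lay within the wild-type range and the second far below it. The log2 fold change of -0.19 (95% interval -0.48 to 0.10) did not pass the test (edgeR adjusted p = 0.657), and it was -0.06 without the second *Piezo1* cKO library and -0.29 without the first.

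**Figure D2:**
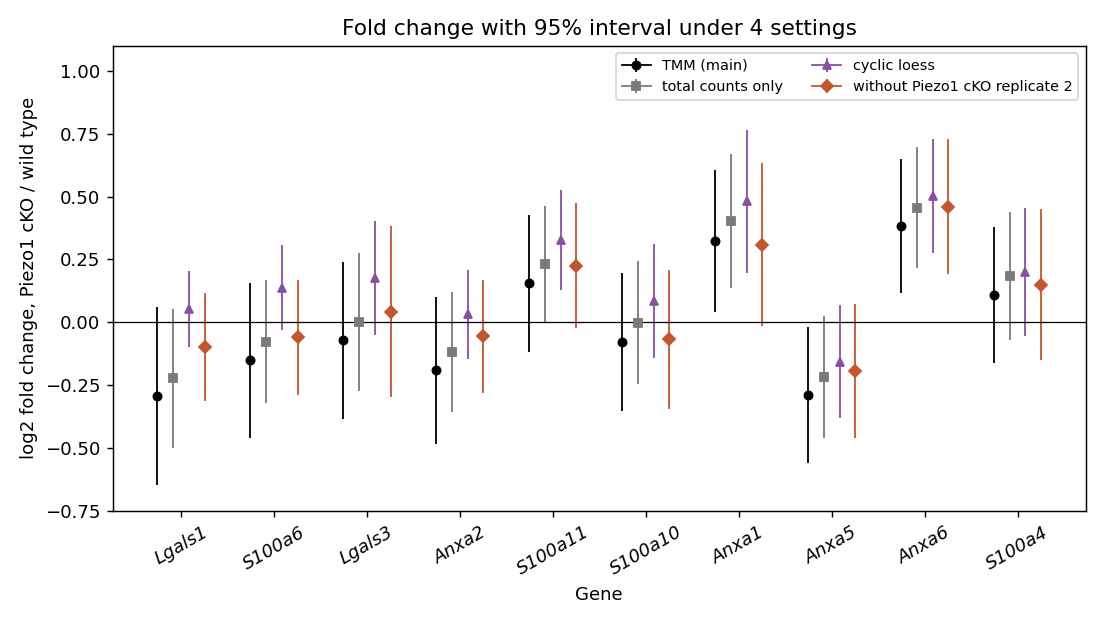
log2 fold change of *Piezo1* cKO over wild type for each gene, with its 95% interval, from the TMM fit, with total counts only, with cyclic loess and without the second *Piezo1* cKO library. The estimates of *Anxa6*, *Anxa1*, *S100a4* and *S100a11* stay above 0 and that of *Anxa5* below 0 under all 4. Of these genes, only *Anxa6* has an interval that leaves out 0 under all 4. The estimates of *Lgals1*, *S100a6*, *Lgals3*, *Anxa2* and *S100a10* pass from below 0 to above 0 with cyclic loess.

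*S100a6* encodes calcyclin, a S100 protein of proliferating cells, and lies on chromosome 3 from 90612882 to 90624181, on the plus strand. It ranked 8 among all genes by mean CPM. It had 1485, 1557 and 1890 counts in wild type and 1541, 1202 and 1472 in *Piezo1* cKO. The levels were 2136, 1737 and 2232 CPM against 1953, 1588 and 1950 CPM, which overlapped. Its log2 fold change was -0.15 (95% interval -0.46 to 0.16, edgeR adjusted p = 0.768). It was -0.06 without the second *Piezo1* cKO library, -0.08 without the third wild-type library and -0.25 without the second.

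*S100a10* encodes the light chain of the annexin A2 complex. It is found at chr3:93555080-93564643, on the plus strand. It had 448, 563 and 478 counts in wild type and 381, 432 and 517 in *Piezo1* cKO, or 644, 628 and 564 CPM against 483, 571 and 685 CPM. The *Piezo1* cKO libraries included both the lowest and the highest level. The log2 fold change was -0.08 (95% interval -0.35 to 0.20, edgeR adjusted p = 0.892). Its ratio to *Anxa2* counts was 0.501, 0.527 and 0.459 in wild type and 0.395, 0.659 and 0.593 in *Piezo1* cKO, so the *Piezo1* cKO libraries again lay on both sides of the wild-type libraries. The mean log2 ratios differed by 0.12, less than the SD of 0.39 among the *Piezo1* cKO libraries.

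*S100a11* encodes a S100 protein that binds annexin A1 and takes part in plasma membrane repair. Its position is chr3:93520488-93526287, on the plus strand and next to *S100a10*. It had 466, 495 and 521 counts in wild type and 549, 464 and 554 in *Piezo1* cKO. In CPM the groups overlapped, at 670, 552 and 615 in wild type against 696, 613 and 734 in *Piezo1* cKO. Its log2 fold change was 0.15 (95% interval -0.12 to 0.43, edgeR adjusted p = 0.712), and it was 0.09 without the second wild-type or without the third *Piezo1* cKO library, 0.23 without the first wild-type library and with total counts only, and 0.33 with cyclic loess (adjusted p = 0.154). Its level is uncertain, because 42.1% of the 50-base words in the last 500 bases of its transcripts recur in *Gm12854* and 23.9% in *Gm7665*, and how reads with several matches were counted was not stated. The row of *Gm12854* held 16, 23 and 30 counts in wild type and 35, 33 and 29 in *Piezo1* cKO. The within-library ratio of *S100a11* to *Anxa1* counts ran from 1.07 to 1.56 in wild type, which covered most of its range in *Piezo1* cKO (mean log2 ratios 0.37 and 0.18).

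*S100a4* encodes a S100 protein that binds non-muscle myosin, and was the least abundant of the 10 by CPM. It lies on chromosome 3 from 90603771 to 90606045, on the plus strand, within the longer same-strand gene *Gm42674*, which shares 47.4% of the 50-base words of its last 500 bases. How reads that match both genes were counted was not stated, so the level of *S100a4* and its place as the least abundant are also uncertain. It had 237, 261 and 212 counts in wild type and 238, 224 and 264 in *Piezo1* cKO. The levels of 341, 291 and 250 CPM in wild type and of 302, 296 and 350 CPM in *Piezo1* cKO overlapped. For *S100a4* the log2 fold change was 0.11 (95% interval -0.16 to 0.38, edgeR adjusted p = 0.833). Single libraries decided its size, which was 0.0023 without the third wild-type library, 0.023 without the third *Piezo1* cKO library and 0.22 without the first wild-type library.

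The 10 genes spanned a range of levels, which is a description only since abundance was part of how they were chosen. By CPM the order of the means was *Lgals1* (3946), *S100a6* (1933), *Lgals3* (1340), *Anxa2* (1158), *S100a11* (647), *S100a10* (596), *Anxa1* (542), *Anxa5* (475), *Anxa6* (408) and *S100a4* (305). The ranges over the 6 libraries did not overlap for 2 pairs of neighbours in this order, *Lgals1* above *S100a6* and *Anxa2* above *S100a11*, and overlapped for the others, although *S100a6* was above *Lgals3* within each library. The counts are of UMIs primed from the poly(A) tail, which need not grow with transcript length, so that dividing by length lowers long genes by construction and the second scale is given only beside the first. Per kilobase of annotated exons, *Lgals1* was at 4370 and *S100a6* at 1414 CPM per kb, followed by *S100a11* at 1266, *Lgals3* at 721, *S100a4* at 522 and *S100a10* at 492. The 4 annexins were the lowest on this scale, from *Anxa2* at 310 CPM per kb through *Anxa5* at 267 and *Anxa1* at 186 to *Anxa6* at 139. The length scale moved 6 of the 10 places in the order and raised *S100a4* from the last place to the fifth.

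*S100a4* and *S100a6* belong to a run of 12 S100 genes on chromosome 3 whose lower ends lie within 182 kb, while *S100a11* and *S100a10* lie about 3009 and 3044 kb from the first of them. The levels of neighbours in this run differed widely. *S100a5*, between *S100a4* and *S100a6*, had 0 counts in all 6 libraries, and a count of 0 allows up to 4.31 CPM in the first wild-type library, where 3 counts weigh most. *S100a4*, which lies upstream of *S100a6*, averaged 305 CPM against 1933 CPM. *S100a16* (322 CPM), *S100a13* (136 CPM) and *S100a1* (58.7 CPM) were also expressed, whereas *S100a8* and *S100a9*, genes of neutrophils and monocytes, had 1 and 4 counts over all libraries. *S100a7a* had 6, 5 and 10 counts in wild type and 1 in each *Piezo1* cKO library, and *S100a3* had 4, 2 and 6 against 14, 8 and 10. Neither passed the filter on low counts, and both are named after their values were seen.

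**Figure D3:**
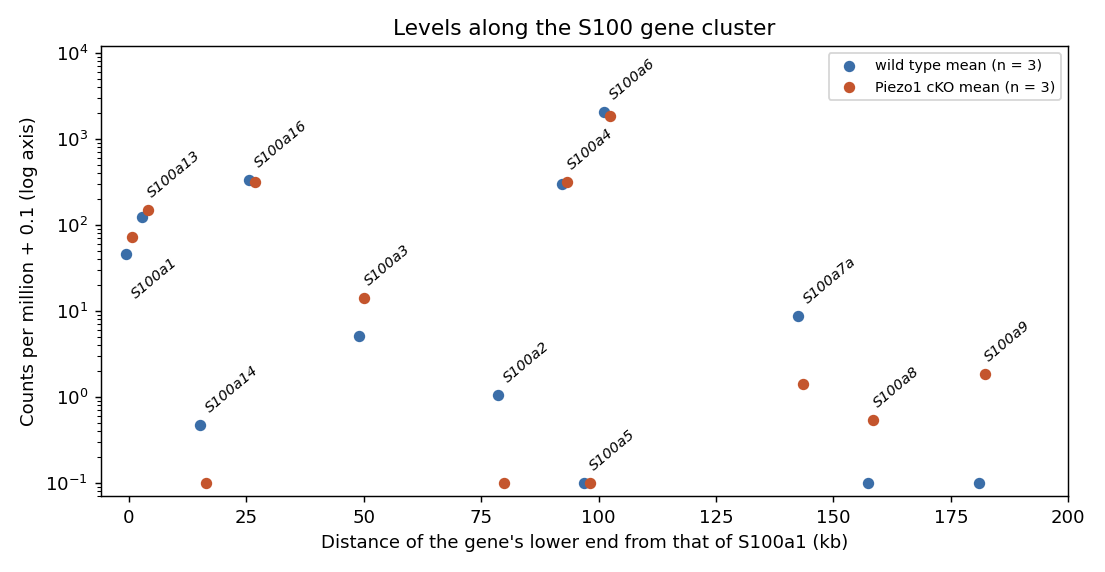
Mean level (CPM + 0.1, log axis) of the 12 genes of the S100 run, against the distance in kb of each gene's lower end from that of *S100a1*, for wild type (blue) and *Piezo1* cKO (orange, n = 3 each). *S100a6* stands highest in both groups, and *S100a5*, between *S100a4* and *S100a6*, is at 0 in both.

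Of the other genes of the 3 families on the lists, 21 had a row in the table and 8 passed the filter. None of the 8 was called. *Lgals9*, which encodes a galectin with tandem carbohydrate-binding domains, had 4, 6 and 10 counts in wild type and 14, 17 and 13 in *Piezo1* cKO, without overlap, and a log2 fold change of 1.21 (95% interval 0.39 to 2.03, edgeR adjusted p = 0.162). *S100a1*, a S100 protein of striated muscle, had 30, 34 and 48 counts against 42, 70 and 52, with a log2 fold change of 0.63 (0.20 to 1.07, edgeR adjusted p = 0.166). *Anxa4*, which encodes annexin A4, averaged 89.7 ± 20.4 CPM in wild type and 115 ± 4.93 CPM in *Piezo1* cKO (SD, n = 3 each, edgeR adjusted p = 0.378). The log2 fold changes of the other five were 0.09 for *Lgals8*, 0.14 for *Anxa3*, 0.08 for *Anxa7*, 0.30 for *S100a13* and -0.07 for *S100a16*. *Anxa8* did not pass the filter, with 3, 2 and 3 counts in wild type and 7, 14 and 16 in *Piezo1* cKO, and is named after its values were seen.

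Genes whose products work with these proteins were also described, from 2 lists. Of 29 genes of membrane repair, 22 were tested and none was called in either direction, with 14 above and 8 below 0 and a median log2 fold change of 0.11. The most abundant were *Capn2*, a calcium-activated protease (325 CPM, log2 fold change -0.16), *Pdcd6ip*, the ESCRT adaptor ALIX (245 CPM, 0.03), and *Myof*, the dysferlin relative myoferlin (223 CPM, 0.17). The counts of *Dysf*, the gene of dysferlin, were 4, 4 and 3 in wild type and 6, 6 and 5 in *Piezo1* cKO, too few to be tested. On this list, the groups of *Cavin1*, *Capns1*, *Mcoln1*, *Smpd1* and *Snap23* did not overlap, all higher in *Piezo1* cKO. Those of *Pdcd6* did not overlap and were lower. All of these are named after their values were seen. Of 20 binding partners and receptors, 12 were tested and none was called, with 3 above and 9 below 0 and a median of -0.13. Among these, *Itgb1*, the integrin β1 chain to which galectin-1 binds, averaged 675 ± 43.4 CPM in wild type and 592 ± 54.4 CPM in *Piezo1* cKO (SD, n = 3 each, edgeR adjusted p = 0.620). *Cacybp*, which encodes the calcyclin-binding partner of S100A6, had 585, 588 and 547 CPM against 491, 450 and 472 CPM, without overlap (log2 fold change -0.28, edgeR adjusted p = 0.378). *Fkbp4*, a co-chaperone that binds S100 proteins, had a log2 fold change of -0.34 (edgeR adjusted p = 0.272). The groups of *Itgb1*, *Fkbp4*, *Plaur* and *Cd44* did not overlap either, all lower in *Piezo1* cKO. Over all genes tested, 16.5% had groups without overlap in either direction. Among the 680 genes at least as abundant as *S100a4*, 205 had groups without overlap and 566 had a log2 fold change below 0. *Cacybp*, *Itgb1*, *Fkbp4* and *Cd44* belong to that class, so lower levels were not particular to these partners. *Plaur* and *Cd44* are named after their values were seen.

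Abundant genes as a class lay below 0 in this comparison, which bears on how the values of these 10 are read. Among the 680 genes at least as abundant as *S100a4*, a limit set after the values were seen, 566 (83.2%) had a log2 fold change below 0 and the median was -0.16, whereas over all genes 49.8% lay below 0. In that class 13 genes (1.91%) were called, 1 higher and 12 lower, while of the 67 called over all genes 40 were higher and 27 lower (49 and 18 with total counts only, 21 and 17 with cyclic loess, 12 and 15 by DESeq2). The class median was -0.09 without the second *Piezo1* cKO library and -0.08 with total counts only. *Lgals1*, *Anxa2* and *Anxa5* lay below the median of the class, and *S100a6*, *S100a10*, *Lgals3*, *S100a4*, *S100a11*, *Anxa1* and *Anxa6* above it. Of 9 other abundant genes taken for scale, such as *Fth1*, the ferritin heavy chain (log2 fold change -0.49, edgeR adjusted p = 0.177), *Actb*, β-actin (-0.33), and *Vim*, vimentin (-0.23), all 9 lay below 0 and none was called. Cyclic loess, which removes a trend of the fold change with abundance, placed the class at a median of -0.01 and 9 of the 10 members above 0, all but *Anxa5*. Scaling to total counts moved the median of all genes to 0.08 and put 5 of the 10 above 0.

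**Figure D4:**
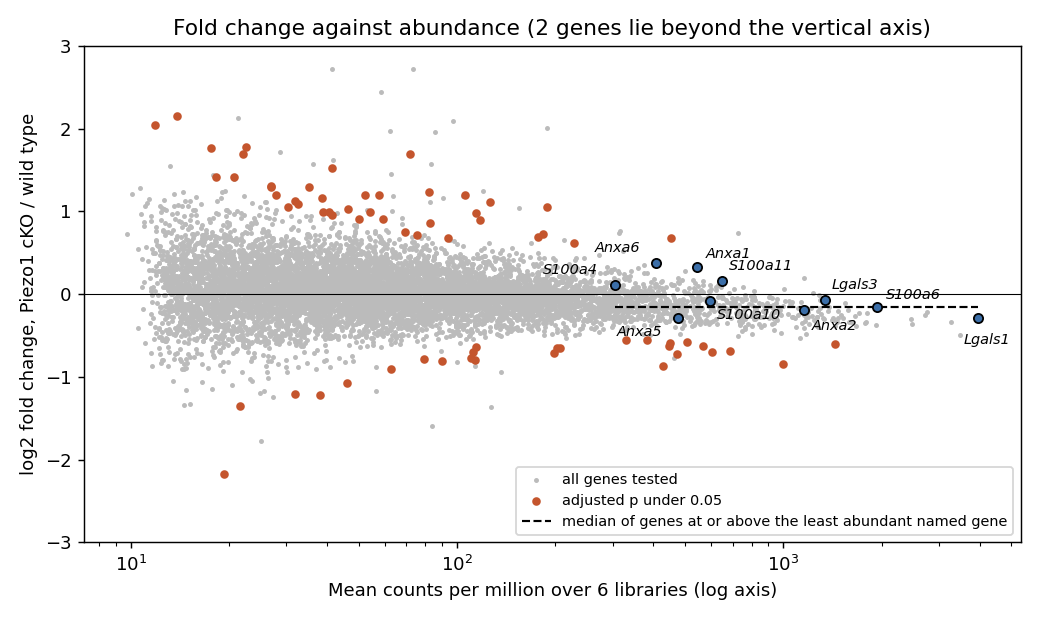
log2 fold change of *Piezo1* cKO over wild type for the 8551 genes tested, against mean CPM over 6 libraries (log axis). Blue points are the 10 genes, orange points the 67 genes with an adjusted p under 0.05, and the dashed line is the median of -0.16 over the 680 genes at least as abundant as *S100a4*. The cloud of abundant genes lies mostly below 0, and *Anxa6* and *Anxa1* are the highest of the 10.

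The libraries also differed in muscle differentiation. The summed level of 17 differentiation markers with a row was 624, 206 and 475 CPM in wild type and 828, 2427 and 1186 CPM in *Piezo1* cKO, with *Acta1*, skeletal α-actin, the most abundant. The second *Piezo1* cKO library, the lowest for *Lgals1*, *Anxa2*, *Anxa5* and *S100a6*, was the highest for these markers, and the second wild-type library, the lowest for them, was also the lowest wild-type library for *Lgals1*, *Lgals3*, *Anxa1*, *Anxa2*, *S100a6* and *S100a11*. The second *Piezo1* cKO library also had the highest TMM factor (1.08, against 0.963 to 1.01 in the other libraries). The summed markers of fibroblasts were 234, 238 and 425 CPM in wild type and 364, 382 and 388 CPM in *Piezo1* cKO, led by *Col3a1*, with *Pi16* at 0. Those of macrophages and blood cells, which express *Lgals3* strongly, were 60.4, 63.6 and 73.2 CPM against 88.7, 71.3 and 79.5 CPM and consisted mainly of *Laptm5*, while *Csf1r* had at most 2 counts in a library. Endothelial markers summed to at most 21.2 CPM in any library with *Tie1* at 0, and Schwann cell markers to at most 12.9 CPM. The part of differentiation or of other cells in the values of the 10 genes was not tested.

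Across the 6 libraries, *Lgals1* and *Anxa2* were the pair of members with the most similar levels (Pearson r = 0.977 of log2 CPM), followed by *Lgals1* and *S100a6* (r = 0.882). *Anxa6* and *S100a10* were the least similar (r = -0.58). These correlations describe 6 libraries that share 2 conditions and carry no test. Among genes with a mean of at least 100 CPM, the closest to *Lgals1* were *Otud6b* (r = 0.995), *Ddx39a* (0.991) and *Atp5d* (0.982), and to *Lgals3* *Snx17* (0.969), *Grb2* (0.964) and *Id3* (0.948). The closest to *Anxa2* were *Mdh2* (0.998), *Rpl23* (0.994) and *Ube2c* (0.992), to *Anxa5* *Tmem248* (0.995), *Gas5* (0.988) and *Parp1* (0.987), and to *Anxa1* *Gclc* (0.987), *Ndufb11* (0.981) and *Tubb2a* (0.976). *Anxa6* was followed most closely by *Dbnl* (0.980), *Copb2* (0.979) and *Cavin1* (0.976), the last of which encodes a caveolar coat protein on the list of membrane repair genes. The closest to *S100a6* were *Gnai2* (0.989), *Cpped1* (0.978) and *Cdkn1a* (0.977), and to *S100a4* *Mrps7* (0.954), *Hsd17b12* (0.952) and *Pgls* (0.927). *S100a10* was closest to *Ube2d2a* (0.989), *Gm9385* (0.970) and *Fcf1* (0.955), and *S100a11* to *Arid5a* (0.994), *Scd2* (0.956) and *Soat1* (0.953).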

How the data were processed

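RNA-seq was performed on 500 pg of total RNA per library with barcoded oligo-dT primers and 12 cycles of PCR. The authors mapped reads with STAR 2.7.9a to GRCm38, used featureCounts 2.0.1 for gene assignment, and collapsed UMIs with UMI-tools 1.1.1. The deposited values are these counts per gene, not normalised, with 1 column per library. Strand and multi-mapping settings were not stated. Libraries held 726378 to 931168 counts. CPM was taken over the counts of the genes that passed the filter, 703559 to 909869 per library. On that scale, 3 counts correspond to 3.35 to 4.31 CPM after TMM. Wilson intervals of shares and limits for a count of 0 cover counting error only, whereas intervals of fold changes come from the fit and include the spread between libraries.

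The members, gene lists and tests were chosen with earlier results of these data known. Groups and replicate numbers came from the sample labels. Counts were fitted across 8551 genes (minimum count 10) with edgeR 4.0.16 in R 4.3.3 (TMM, robust quasi-likelihood test of *Piezo1* cKO against wild type, Benjamini-Hochberg adjustment, called under 0.05), and log2 CPM used a prior count of 2. DESeq2 1.42.0, other scalings and filters, the replicate block and each library left out were the alternatives. The text names all 10 members, family genes passing the filter, called genes of the lists, at most the 3 most abundant genes of a list and the 3 genes most like each member. Exceptions are *Pax7*, *Dysf*, *Pecam1*, *Ly6a*, *Ptprc*, *Csf1r*, *Tie1* and *Pi16*, named as defining markers, the genes of the S100 run (*S100a5*, *S100a8* and *S100a9*) and genes marked as named after their values were seen. Positions are from GENCODE M21 and upstream sequences from RefSeq.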

Additional observations from a re-analysis of the deposited data

How the results depend on the processing

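Across 14 alternatives, 129 of 140 fold changes of the 10 genes kept their direction and side of the threshold. With total counts only and with cyclic loess, 1 member was called, *Anxa6*. *Lgals3* changed sign with total counts only (0.0022), with cyclic loess (0.18), without the first wild-type library (0.102) and without the second *Piezo1* cKO library (0.042), and ran from -0.236 to 0.102 with each library left out. Cyclic loess also turned *Lgals1* (0.052), *Anxa2* (0.031), *S100a6* (0.137) and *S100a10* (0.0862). With each library left out, *S100a10* ran from -0.221 to 0.0331, the last of these without the first *Piezo1* cKO library. None of these reversed values passed the test, and the cause was not tested. The members' median was 0.16 with cyclic loess, and ran from -0.143 to 0.0322 with each library left out, the highest without the first wild-type library. Per kilobase, 6 of the 10 genes changed their place in the order of levels. Of all genes, 27 were called by DESeq2, 38 with cyclic loess and 129 without a filter, where more genes were tested, and from 6 to 174 with each library left out. The lowest count came without the second *Piezo1* cKO library, and the others beyond a factor of 1.5 were 29 without the third *Piezo1* cKO library, 105 and 131 without the first and the third wild-type library and 174 without the first *Piezo1* cKO library.

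Replicate numbers are shared by the groups. Deviations of same-numbered libraries correlated at -0.143, -0.203 and 0.0121, and 0 of the 6 libraries correlated best with the library of its own number, so the numbers were not taken as pairs. With the replicate block, 46 genes and 0 members were called. The 95% intervals of the members' log2 fold changes were 0.534 to 0.708 wide, the widest for *Lgals1*, which had the highest counts. At the lowest counts of the members, counting error was 2.29% to 6.87%.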

Other observations

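Outside the 3 families, 3 genes of the lists were called by edgeR. *Ncam1*, a cell adhesion molecule of satellite cells and myoblasts, rose from 168, 170 and 200 CPM in wild type to 224, 272 and 331 CPM in *Piezo1* cKO (log2 fold change 0.62, adjusted p = 0.011). The list of satellite cell markers was split, with 5 of the 9 tested above 0 and 4 below, and none but *Ncam1* was called. *Tnni2*, fast skeletal troponin I, rose from 6, 2 and 4 counts to 16, 24 and 12 counts (log2 fold change 2.16, adjusted p = 0.00459). *Dcn*, the proteoglycan decorin of fibroblasts and extracellular matrix, fell from 18, 23 and 37 counts to 8, 5 and 3 counts (log2 fold change -2.17, adjusted p = 0.000387). The other two fibroblast genes tested, of the collagens, lay above 0 and were not called, with log2 fold changes of 0.85 for *Col1a2* (adjusted p = 0.125) and 0.41 for *Col3a1* (adjusted p = 0.265). All 12 differentiation markers tested had a log2 fold change above 0, of which *Tnni2* was called. *Acta1* had 46, 57 and 80 counts in wild type and 133, 353 and 205 in *Piezo1* cKO (adjusted p = 0.241), *Tnnt3*, fast skeletal troponin T, had 64, 27 and 60 against 102, 144 and 84 (adjusted p = 0.377), and *Myog*, the regulator of terminal differentiation, had 40, 3 and 45 against 63, 203 and 92 (adjusted p = 0.468). *Vcam1*, whose product was used to sort the cells, had 86, 128 and 129 counts in wild type and 92, 65 and 79 in *Piezo1* cKO, a log2 fold change of -0.45 (adjusted p = 0.185), and is named after its values were seen.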
